A study of Mus musculus with 24 samples.

Results

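The members are the 92 nuclear genes of the mitochondrial respiratory chain that the arrays measured. They were taken by name: every probe set that the platform annotation maps to 1 gene symbol starting with Nduf, with Sdh followed by a, b, c or d, with Uqcr, with Cox4 to Cox8 or with Atp5, without predicted genes and pseudogenes, and with the probe set of highest mean kept for each gene. They are 92 of the 18820 genes with 1 symbol. They comprised 36 subunits of complex I (6 core and 30 accessory), 7 complex I assembly factors named Ndufaf, 4 subunits and 4 assembly factors of complex II, 7 subunits of complex III, 17 of complex IV and 17 of complex V.

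Livers of male C57BL/6 mice were profiled on whole-transcript arrays, with 1 array per mouse and 6 mice in each of 4 groups. Wild-type mice and mice lacking the bile acid receptor FXR throughout the body (FXR-/-) were given either vehicle, which was 1% methyl cellulose, or the FXR agonist obeticholic acid (OCA, INT-747) at 10 mg/kg/day in it. Both were given by oral gavage for 7 days, starting at an age of 9 to 12 weeks, and all mice ate chow. The design addresses what FXR activation changes in liver gene expression, and whether that change needs the receptor.

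The respiratory chain lies in the inner mitochondrial membrane. Complexes I and II pass electrons from NADH and succinate to ubiquinone, complex III passes them on to cytochrome c, and complex IV hands them to oxygen. Complexes I, III and IV pump protons as they do so, and complex V, the ATP synthase, lets the protons flow back to make ATP. Hepatocytes are rich in mitochondria and use this ATP for gluconeogenesis, urea synthesis and bile formation. Most subunits are encoded in the nucleus, while a small core set comes from mitochondrial DNA and is not analysed here.

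All values are the deposited log2 expression values, so a difference of 1 is a doubling, and a level is not compared between genes because probes differ in brightness. A gene was called when limma's moderated test gave an adjusted p (Benjamini-Hochberg over all 18820 genes) under 0.05. The livers are bulk samples, so fewer cells of a type and less RNA per cell cannot be told apart. The labels say that each array holds a separate mouse.

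Nr0b2 (SHP), a direct target gene of FXR, had lowest, median and highest values of 5.87, 6.56 and 7.30 in wild-type vehicle livers and of 3.40, 4.03 and 4.60 in FXR-/- vehicle livers. Its genotype difference was -2.62 (SE 0.25, n = 6 against 6, limma adjusted p 1.21e-08). Nr1h4, the FXR gene itself, differed by -0.17 without passing the test (SE 0.07, limma adjusted p 0.093), and no label says where its probes lie relative to the deleted part, so it checks nothing. The array names carry a code number (5, 7 or 9), which the labels do not explain and which is not balanced over the groups. All wild-type OCA arrays have number 5 and all FXR-/- OCA arrays number 9. Of the vehicle arrays, 4 wild-type and 4 FXR-/- arrays share number 7. The names also carry a letter (A to H), which the labels do not explain either. Among the number 7 vehicle arrays it runs from A to D in wild-type and from E to H in FXR-/- livers, so it coincides with genotype there. Wild-type vehicle replicate 6 stood apart, with 532 genes over 2-fold from the rest of its group, against 2 to 90 genes for the other arrays.

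Under vehicle, the respiratory chain genes were lower in FXR-/- liver more often than higher. Of the 92 genes, 26 were called lower (28.3%) and 3 were called higher (3.26%). Over all genes 12.1% were called lower and 15.4% higher, 27.5% in all. The differences were small: the median member lay 6.21% lower (-0.09 on the log2 scale, against -0.03 over all genes), and 70 of the 92 differences were negative (10564 of 18820 over all genes). All 6 FXR-/- arrays lay below all 6 wild-type arrays in 19 members, a separation that 5.67% of all genes showed, and above them in 2 members, against 9.4% of all genes. Since 66 members had a mean log2 value of 8 or more, the count was also taken at that level. There 21 of 66 members were called lower (31.8%) and 1 higher, beside 22.1% of the 3478 genes at that level called lower and 815 called higher. All FXR-/- arrays lay below all wild-type arrays in 15 of these 66 members and in 475 of these 3478 genes. They lay above them in 1 of these members and in 590 of these genes.

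The count depended on how the arrays were compared. With the code number as a block 18 members were called, 17 lower and 1 higher, beside 1780 lower and 2501 higher of all 18820 genes. With the letter as a block 21 members were called, 17 lower and 4 higher, beside 1955 lower and 2669 higher of all genes. Over the 4 against 4 arrays of number 7 alone, where letter and genotype coincide, 16 members were called, 14 lower and 2 higher. Without wild-type vehicle replicate 6, 27 were called, 24 lower and 3 higher. Array medians over the 18820 genes ran from 5.14 to 5.23 in wild-type and from 5.32 to 5.38 in FXR-/- livers, while medians over all probe sets ran from 4.57 to 4.65 in every group. Centring each array on the former moved the median difference of all genes from -0.03 to -0.20 and called 73 members lower and none higher. Such a centring moves every gene of an array alike, so the members' median relative to all genes, -0.06, is the same with and without it by construction.

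**Figure D1:**
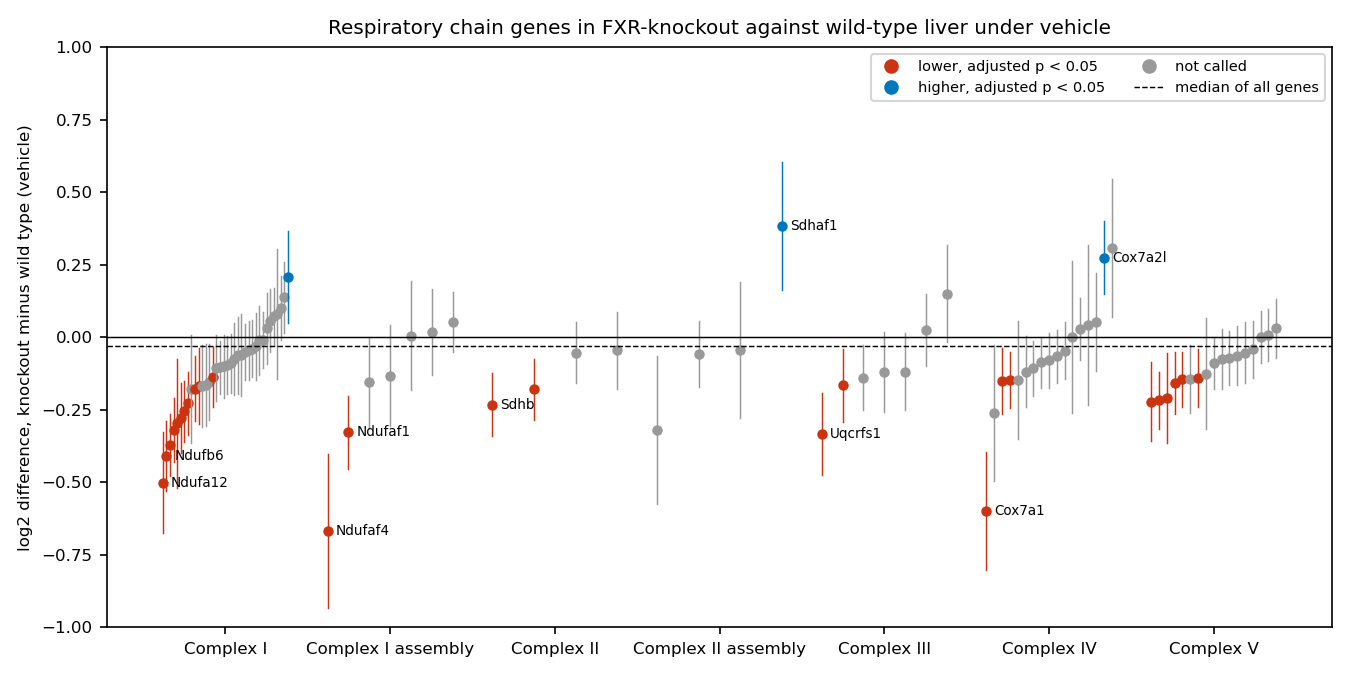
Log2 difference between FXR-/- and wild-type vehicle livers for each of the 92 genes, ordered within each complex, with 95% intervals from limma (6 against 6 mice). Called genes are red (26 lower) or blue (3 higher), and the dashed line is the median of all genes at -0.03.

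Complex I takes electrons from NADH and is the largest of the complexes. Of its 36 subunits 11 fell (30.6%) and 1 rose (2.78%) in FXR-/- vehicle liver, with a median of -0.10. Over all genes the shares were 12.1% and 15.4%, and among genes with a mean log2 value of 8 or more 22.1% and 23.4%. The core subunits carry the flavin and the iron-sulphur clusters, and 3 of the 6 measured fell. Ndufs8, which holds iron-sulphur clusters near the quinone site, had values of 10.48, 10.51 and 10.62 (lowest, median, highest) in wild-type and of 10.03, 10.23 and 10.37 in FXR-/- vehicle livers, so the groups did not overlap. Its difference was -0.32 (SE 0.05, limma adjusted p 4.33e-05). Ndufv1, the subunit that binds the flavin and NADH, differed by -0.28 (SE 0.06, limma adjusted p 0.00063), with 9.44 to 9.68 in wild-type and 9.19 to 9.47 in FXR-/- livers, which overlap narrowly. Ndufs1, the largest core subunit, differed by -0.17 (SE 0.06, limma adjusted p 0.0487) and kept its call in 4 of 12 fits that each left out 1 array, with an adjusted p of up to 0.133.

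Accessory subunits surround the core and are needed for its assembly and stability. Of the 30 measured, 8 fell (26.7%) and 1 rose (3.33%), beside 12.1% and 15.4% of all genes. Ndufa12 had 8.15, 8.35 and 8.66 in wild-type and 7.73, 7.88 and 8.04 in FXR-/- vehicle livers, with every FXR-/- array below every wild-type array. Its difference of -0.50 (SE 0.08, limma adjusted p 4.75e-05) is a fall of 29.3%. Ndufb6 had 9.32, 9.44 and 9.52 in wild-type and 8.93, 9.03 and 9.07 in FXR-/- livers, a difference of -0.41 (SE 0.06, limma adjusted p 5.89e-06). Ndufb11 had 8.85, 8.94 and 9.04 against 8.51, 8.57 and 8.63, a difference of -0.37 (SE 0.05, limma adjusted p 3.64e-06). For both genes the groups were again fully separated. The other falls were in Ndufb3, Ndufa1, Ndufa9, Ndufb5 and Ndufv3, from -0.30 to -0.14. In the 12 fits that each left out 1 array, Ndufb3 kept its call in 6 and Ndufv3 in 4, and with the code number as a block Ndufv3 differed by -0.07 (limma adjusted p 0.452). For Ndufb5 the second probe set pointed the other way, with 0.21 against -0.18 for the one kept. Ndufa7 was called higher at 0.21 (SE 0.08, limma adjusted p 0.0482) and was not called in 8 of 12 fits that each left out 1 array.

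The Ndufaf proteins help to build complex I and are not part of the finished enzyme. Of the 7 measured, 2 fell (28.6%) and none rose, beside 12.1% and 15.4% of all genes. Ndufaf4 showed the lowest difference of all 92 genes: its values were 7.22, 7.49 and 7.97 in wild-type and 6.59, 6.91 and 7.12 in FXR-/- vehicle livers, with no overlap. The difference of -0.67 (SE 0.13, limma adjusted p 0.000264) is a fall of 37.0%. Ndufaf1, which acts in the assembly of the membrane arm, had 7.21, 7.43 and 7.50 against 6.97, 7.09 and 7.20, also without overlap, and differed by -0.33 (SE 0.06, limma adjusted p 0.000182).

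**Figure D2:**
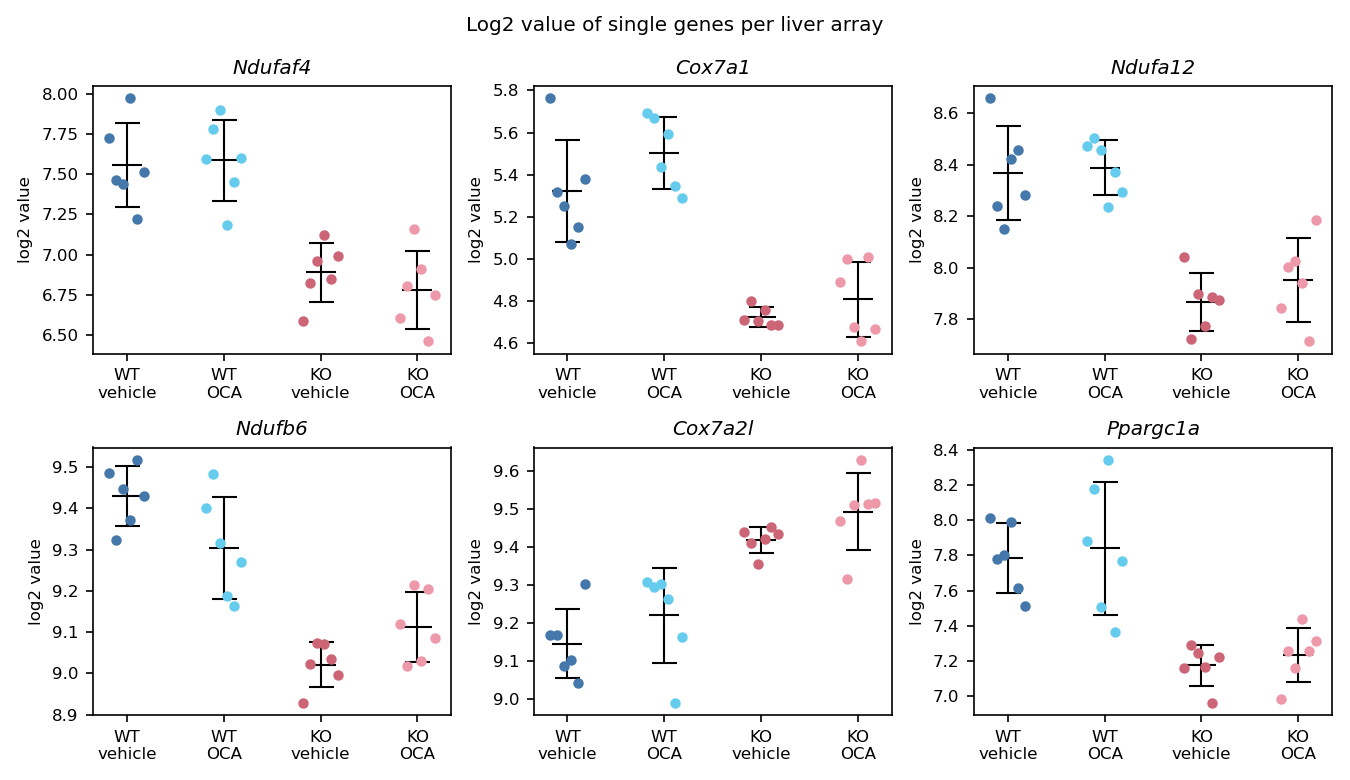
Log2 value of 6 genes in each of the 24 arrays, with 6 mice per group (WT, wild type; KO, FXR-/-); bars show the mean and SD, and the y axes do not start at 0. Ndufaf4, Cox7a1, Ndufa12 and Ndufb6 lie lower and Cox7a2l higher in the FXR-/- groups, while the vehicle and OCA points of each genotype overlap; Ppargc1a, a regulator of mitochondrial biogenesis, is shown beside them.

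Promoter sequences are shown for the 4 members with the lowest differences under vehicle, so that the motifs of known regulators of the chain can be read beside them. RefSeq windows (GRCm38.p6) of 300 bases, from 250 before to 50 after the gene start, matched 77 of the 92 members with 82 windows. They were searched on both strands for the motif of NRF1 (GCGCATGCG), the GABP/ETS motif (CCGGAAG), YY1 (AAGATGGCG), the oestrogen-related receptors (TCAAGGTCA) and the core of the inverted repeat bound by FXR (GTCANTGAC). The last 2 share the letters GTCA. Motif letters found are in capitals. Ndufaf4 (chr4:24897833-24898132, plus strand) holds the NRF1 motif on both strands, Ndufb6 (chr4:40279372-40279671, minus strand) the GABP/ETS motif read from the opposite strand. Ndufa12 (chr10:94198785-94199084, plus strand) and Cox7a1 (chr7:30183921-30184220, plus strand), a complex IV gene described further on, hold none of the 5.
Ndufaf4: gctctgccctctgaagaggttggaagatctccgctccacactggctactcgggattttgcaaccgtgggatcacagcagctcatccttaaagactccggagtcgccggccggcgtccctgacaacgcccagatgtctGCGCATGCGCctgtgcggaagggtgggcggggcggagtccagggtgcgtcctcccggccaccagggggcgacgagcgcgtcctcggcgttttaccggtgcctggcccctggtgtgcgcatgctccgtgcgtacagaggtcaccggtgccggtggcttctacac
Ndufb6: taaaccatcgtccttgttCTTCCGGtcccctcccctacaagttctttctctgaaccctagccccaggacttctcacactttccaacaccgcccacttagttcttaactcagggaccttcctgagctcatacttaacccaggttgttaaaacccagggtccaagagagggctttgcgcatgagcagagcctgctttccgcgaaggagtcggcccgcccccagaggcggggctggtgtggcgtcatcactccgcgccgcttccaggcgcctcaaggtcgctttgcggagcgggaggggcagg
Ndufa12: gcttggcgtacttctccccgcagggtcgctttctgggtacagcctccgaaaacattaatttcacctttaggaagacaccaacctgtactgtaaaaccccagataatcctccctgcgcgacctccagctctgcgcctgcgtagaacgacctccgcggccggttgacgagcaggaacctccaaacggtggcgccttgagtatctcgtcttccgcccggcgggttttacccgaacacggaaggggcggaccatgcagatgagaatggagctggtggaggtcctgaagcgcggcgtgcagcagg
Cox7a1: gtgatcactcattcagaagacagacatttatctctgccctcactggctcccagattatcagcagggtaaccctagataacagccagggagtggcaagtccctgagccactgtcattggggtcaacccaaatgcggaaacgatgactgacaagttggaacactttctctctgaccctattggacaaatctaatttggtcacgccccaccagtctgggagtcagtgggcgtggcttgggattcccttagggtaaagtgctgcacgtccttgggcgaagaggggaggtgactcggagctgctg

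The NRF1 motif lay in 12.2% of the 82 member windows and in 1.75% of all 32851 windows, the GABP/ETS motif in 25.6% and 8.86%, the YY1 motif in 8.54% and 1.4%, and the oestrogen-related receptor motif in 2.44% and 0.423%. Among the 23 windows of members called lower under vehicle, the GABP/ETS motif was in 7, among them those of Ndufs8, Ndufaf1 and Sdhb. The YY1 motif was in 2 of these windows, the NRF1 motif in 1 and the oestrogen-related receptor motif in 0. The FXR repeat was in 1 member window, that of Ndufab1, and in 0.387% of all windows. The matches are descriptions of sequence, and no binding was measured.

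Complex II, succinate dehydrogenase, is also an enzyme of the citric acid cycle and is encoded wholly in the nucleus. Of its 4 subunits the 2 catalytic ones fell. Called lower were 12.1% of all genes and 22.1% of those with a mean log2 value of 8 or more. Sdha, which holds the flavin, had 11.32, 11.34 and 11.38 in wild-type and 11.07, 11.19 and 11.22 in FXR-/- vehicle livers, a difference of -0.18 (SE 0.05, limma adjusted p 0.00951). Sdhb, the iron-sulphur subunit, had 10.26, 10.31 and 10.45 against 10.03, 10.11 and 10.17, a difference of -0.23 (SE 0.05, limma adjusted p 0.00151). Neither pair of groups overlapped. The membrane anchors Sdhc and Sdhd differed by -0.05 each and were not called (limma adjusted p 0.654 and 0.488). Among the 4 assembly factors Sdhaf1, which helps to insert the iron-sulphur clusters into Sdhb, rose by 0.38 (SE 0.11, limma adjusted p 0.00829). Its values were 6.04, 6.30 and 6.65 in wild-type and 6.68, 6.72 and 6.86 in FXR-/- livers, just separated. With the code number as a block the limma adjusted p was 0.064. The call was also lost with the mean over probe sets and with arrays centred on their medians over all genes. A second probe set of Sdhaf1, with a lower mean value (4.38 against 6.53), differed by 0.06 (limma adjusted p 0.7555 over all probe sets).

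Complex III, the cytochrome bc1 complex, had 2 of 7 subunits lower (28.6%) and none higher, beside 12.1% and 15.4% of all genes. Among genes with a mean log2 value of 8 or more 22.1% were called lower. Uqcrfs1, the Rieske iron-sulphur protein, had 9.00, 9.08 and 9.23 in wild-type and 8.66, 8.75 and 8.91 in FXR-/- vehicle livers, without overlap, and differed by -0.33 (SE 0.07, limma adjusted p 0.000467). Uqcrb, a small subunit near the quinone-binding site, differed by -0.17 (SE 0.06, limma adjusted p 0.0435), and its call was kept in 3 of 12 fits that each left out 1 array, with adjusted p up to 0.103.

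Complex IV, cytochrome c oxidase, had 3 of 17 genes lower (17.6%) and 1 higher (5.88%), beside 12.1% and 15.4% of all genes. Cox7a1, the form of subunit 7a known from heart and skeletal muscle, had 5.07, 5.29 and 5.76 in wild-type and 4.69, 4.71 and 4.80 in FXR-/- vehicle livers. The groups did not overlap, and the difference was -0.60 (SE 0.10, limma adjusted p 3.77e-05), a fall of 34.0%. Cox5a and Cox6c, subunits without such a restriction, differed by -0.15 each (limma adjusted p 0.0419 and 0.019), and Cox5a kept its call in 4 of 12 fits that each left out 1 array (adjusted p up to 0.0954). Cox7a2l, which takes part in joining complexes III and IV into supercomplexes, rose: its values were 9.04, 9.14 and 9.30 in wild-type and 9.36, 9.43 and 9.45 in FXR-/- livers, a difference of 0.27 (SE 0.06, limma adjusted p 0.00123), which was not called with arrays centred on their medians over all genes.

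The other 7 genes known as muscle, testis or low-oxygen forms gave no call. Cox6b2, a testis form, came nearest at 0.31 (SE 0.12, limma adjusted p 0.0502), followed by Cox8c at -0.26 (limma adjusted p 0.0941). Cox8b, Cox6a2, Cox4i2, Cox7b2 and Ndufa4l2 lay between -0.15 and 0.08, with limma adjusted p from 0.289 to 0.996. The arrays give no detection calls, so whether these genes lie above background was not tested. The widely expressed partners Cox7a2, Cox7b, Cox4i1, Cox6b1, Ndufa4, Cox6a1 and Cox8a were not called either, with differences from -0.12 to 0.03. Ndufa4 is named after complex I but is known as a subunit of complex IV.

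The muscle markers fixed for these livers were examined beside the Cox7a1 values. Of 6 such markers 2 were called lower under vehicle (33.3%), Tnnt3 at -0.26 and Ckm at -0.22, and none higher. Over all genes 12.1% were called lower and 15.4% higher. The median of the 6 was -0.0018. Under OCA 0 of the 6 were called, with a median of -0.05. The log2 of their summed signal ran from 6.05 to 6.17 in wild-type and from 5.94 to 6.26 in FXR-/- vehicle livers. The part of muscle RNA in the Cox7a1 difference was not tested.

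In complex V, the ATP synthase, 6 of 17 genes fell (35.3%) and none rose, with a median of -0.09. Over all genes 12.1% were called lower and 15.4% higher. Among genes with a mean log2 value of 8 or more 22.1% were called lower. Atp5g1, which encodes the c subunit of the proton-driven ring, had 11.84, 11.89 and 11.99 in wild-type and 11.62, 11.68 and 11.72 in FXR-/- vehicle livers. These groups did not overlap, and the difference was -0.22 (SE 0.05, limma adjusted p 0.000985). Atp5a1, the alpha subunit of the catalytic head, had 11.68, 11.74 and 11.79 against 11.57, 11.59 and 11.61, a difference of -0.15 (SE 0.05, limma adjusted p 0.0182). Atp5md, Atp5e, Atp5j and Atp5o differed by -0.22, -0.21, -0.16 and -0.14. Of the 12 fits that each left out 1 array, 3 kept the call of Atp5e, 9 that of Atp5j and 7 that of Atp5o. With the code number as a block 2 genes of complex V were called, both lower, and the adjusted p of Atp5md became 0.146.

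**Figure D3:**
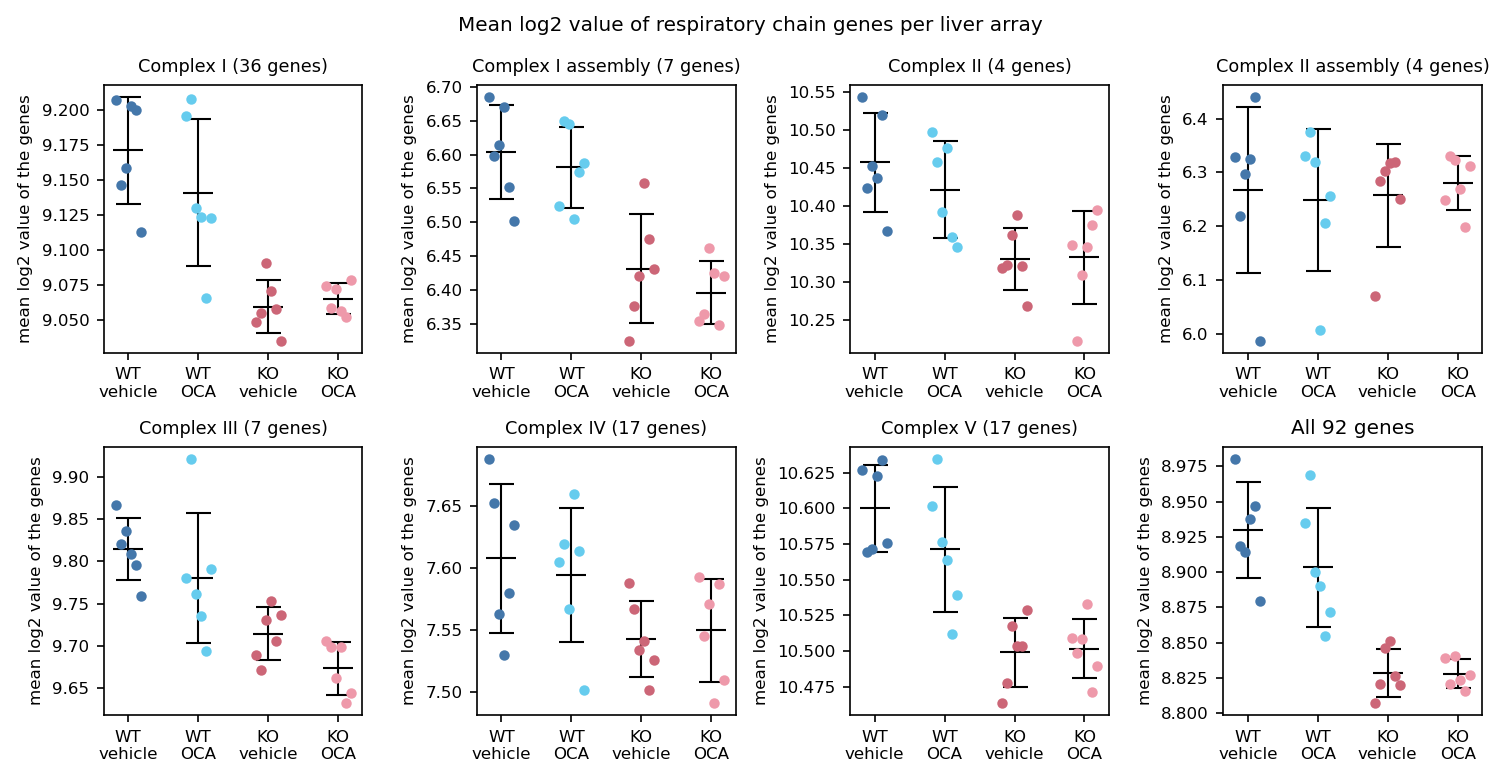
Mean log2 value of the genes of each complex in each of the 24 arrays, with 6 mice per group; bars show the mean and SD, and the y axes do not start at 0. For complex I the 6 FXR-/- vehicle arrays lie between 9.04 and 9.09 and the 6 wild-type vehicle arrays between 9.11 and 9.21.

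Averaged over the subunits of a complex, the vehicle groups were separated for complexes I, III and V. Complex I had a mean of 9.17 ± 0.04 (SD, n = 6) in wild-type and of 9.06 ± 0.02 in FXR-/- vehicle livers, complex III of 9.81 ± 0.04 and 9.71 ± 0.03, and complex V of 10.60 ± 0.03 and 10.50 ± 0.02. For complex II the ranges, 10.37 to 10.54 and 10.27 to 10.39, overlapped, and so did those of complex IV, 7.53 to 7.69 and 7.50 to 7.59. Under OCA the ranges of wild-type and FXR-/- livers overlapped for all of complexes I to V. They were 9.07 to 9.21 and 9.05 to 9.08 for complex I. For complex III they were 9.69 to 9.92 and 9.63 to 9.71, and for complex V 10.51 to 10.63 and 10.47 to 10.53. The means over a complex weight every gene alike and carry no test here.

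The genotype comparison under OCA used 12 other mice. There 20 members were called lower (21.7%) and 5 higher (5.44%). Over all genes 13.3% were called lower and 17.4% higher (30.7% in all), and the median member differed by -0.07 against -0.02. At a mean log2 value of 8 or more 14 of 66 members were called lower (21.2%) and 5 higher (7.58%). Of the 3478 genes at that level 24.5% were called lower and 25.8% higher, so the members' share called lower was not above theirs. All 6 FXR-/- arrays lay below all wild-type arrays in 13 members (7.48% of all genes) and above them in 3 (10.9% of all genes). At a mean log2 value of 8 or more they lay below in 10 of 66 members and in 622 of 3478 genes. There they lay above in 3 members and in 649 genes. Ndufaf4 again had the lowest difference: 7.18, 7.60 and 7.90 in wild-type and 6.46, 6.78 and 7.16 in FXR-/- OCA livers, -0.80 (SE 0.13, limma adjusted p 2.31e-05). Cox7a1 had 5.29, 5.51 and 5.69 against 4.61, 4.78 and 5.01, -0.70 (SE 0.10, limma adjusted p 4.06e-06). Both genes were separated between genotypes in these mice as well.

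Of the members, 17 were called in the same direction in both sets of mice and none in opposite directions. These were 58.6% of the calls under vehicle and 68.0% of those under OCA, against 76.1% and 68.2% over all genes. Called lower in both were 16 members, beside 8.01% of all genes: Ndufs8 and Ndufv1 of the complex I core, Ndufa1, Ndufa9, Ndufa12, Ndufb6, Ndufb11 and Ndufv3 around it, Ndufaf1 and Ndufaf4, Sdha, Uqcrfs1, Cox7a1, and Atp5g1, Atp5e and Atp5md. Of these, Ndufaf1 kept its OCA call in 5 of 12 fits that each left out 1 array, Sdha in 7, Atp5md in 9 and Ndufv3 in 11. Cox7a2l was called higher in both, beside 12.9% of all genes, with values of 8.99, 9.28 and 9.31 in wild-type and 9.32, 9.51 and 9.63 in FXR-/- OCA livers. All 29 members called under vehicle kept their sign under OCA, as did 5046 of the 5174 genes called among all genes, and 75 of the 92 members had the same sign in both (81.5%, against 77.6% over all genes).

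**Figure D4:**
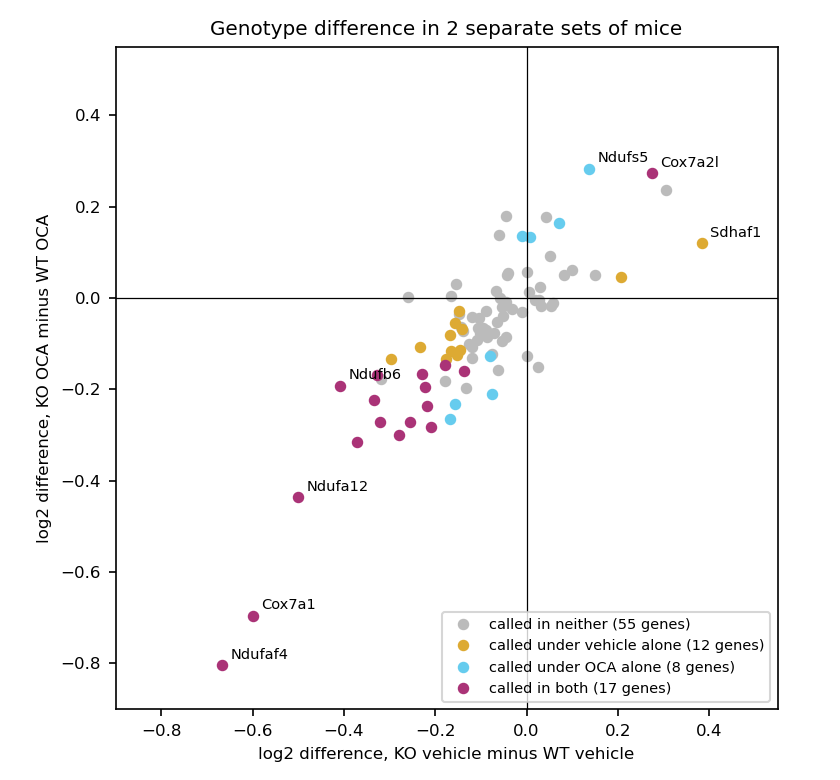
Log2 genotype difference of the 92 genes under vehicle (x axis) and under OCA (y axis), from separate mice. The 17 genes called in both sets are purple, and Ndufaf4, Cox7a1 and Ndufa12 lie at the lower left at -0.67, -0.60 and -0.50 on the x axis.

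Some calls were made under OCA alone. Lower were Ndufa11, Ndufb8, Ndufaf6 and Cox4i1, from -0.26 to -0.13. Higher were the complex I subunit Ndufs5 at 0.28 (8.76 to 9.00 in wild-type and 9.01 to 9.30 in FXR-/- OCA livers, SE 0.06, limma adjusted p 0.000556), and Ndufa10 at 0.16, Ndufc1 at 0.14 and Atp5mpl at 0.13, the last 3 of which turned negative when arrays were centred on their medians over all genes. That centring called 76 members lower and none higher. In the 12 fits that each left out 1 array, Cox4i1 kept its call in 5, Ndufc1 in 7, Ndufaf6 in 10 and Atp5mpl in 11. Code number and genotype coincide under OCA: a fit with the number as a block, which joins the numbers only through the vehicle arrays and has a median SE of 0.13 in place of 0.06, called 1 member, Cox7a1 at -0.83 (limma adjusted p 0.0233), and 2334 genes of all in place of 5780. Without the 4 arrays whose names end in _2, 12 members were called, 11 lower and 1 higher.

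OCA itself changed no member beyond the test in either genotype. In wild-type liver 0 of 92 were called by limma, with 4 at an unadjusted p under 0.05 and a smallest adjusted p of 0.41, and of all genes 0.0691% were called and 9.47% had an unadjusted p under 0.05. In FXR-/- liver 0 of 92 were called, with 1 at an unadjusted p under 0.05 and a smallest adjusted p of 0.913, and of all genes 0.0159% were called and 5.14% had an unadjusted p under 0.05. The medians were -0.03 and -0.00. The 95% interval of the OCA effect lay within 0.5 log2 units of 0 for 91 of 92 members in wild-type liver and for all 92 in FXR-/- liver; the exception was Cox8c, with an interval from -0.52 to -0.05.

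The members with the lowest unadjusted p in wild-type liver were Cox8c at -0.29 (SE 0.11), Sdhb at -0.13 (SE 0.05), Ndufb6 at -0.13 (SE 0.06) and Ndufaf1 at -0.13 (SE 0.06), with limma adjusted p from 0.411 to 0.526. In FXR-/- liver it was Uqcrq, a small subunit of complex III, at -0.14 (SE 0.06, limma adjusted p 0.913). Ndufaf4 differed with OCA by 0.03 in wild-type and by -0.11 in FXR-/- liver. Cox7a1 differed by 0.18, the highest OCA difference among the 92 members in wild-type liver, and by 0.08 in FXR-/- liver, and was called in neither. The test of the difference between the OCA effects of both genotypes called none of the 92 by limma, with 5 at an unadjusted p under 0.05 and a smallest adjusted p of 0.719, against 0.0% called and 6.06% at an unadjusted p under 0.05 over all genes. The code number differs in part between the groups of each OCA comparison, and limma called 0 members with the number as a block as well, while the genes called among all 18820 went from 13 to 667 in wild-type liver, to 77 with the block and without wild-type vehicle replicate 6, and to 5 within number 5 alone.

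Genes that serve the chain from outside the complexes were taken from further lists. Of 17 regulators of mitochondrial biogenesis 6 fell in FXR-/- vehicle liver (35.3%) and none rose, beside 12.1% and 15.4% of all genes. Under OCA 7 fell (41.2%) and none rose, beside 13.3% and 17.4% of all genes. Ppargc1a, the coactivator PGC-1alpha, had 7.51, 7.79 and 8.01 in wild-type and 6.96, 7.20 and 7.29 in FXR-/- vehicle livers, separated, with a difference of -0.61 (SE 0.13, limma adjusted p 0.000622). Under OCA it differed by -0.60 (limma adjusted p 0.0006). Gabpa, the ETS factor that binds many promoters of the chain, differed by -0.38 and Nrf1, nuclear respiratory factor 1, by -0.33 (limma adjusted p 0.000308 and 0.0121). The other 3 were Gabpb1 at -0.33, Yy1 at -0.26 and Polrmt, the mitochondrial RNA polymerase, at -0.21. Within code number 7 there were 8 calls in this list, all lower, and without wild-type vehicle replicate 6 there were 9, all lower.

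The electron carriers gave both directions, with 3 of 17 lower (17.6%) and 2 higher (11.8%), near the 12.1% and 15.4% of all genes. Under OCA 3 were lower (17.6%) and 5 higher (29.4%), beside 13.3% and 17.4% of all genes. Cycs, cytochrome c, had 10.59, 10.82 and 10.98 in wild-type and 10.15, 10.42 and 10.62 in FXR-/- vehicle livers, with a slight overlap, and differed by -0.41 (SE 0.09, limma adjusted p 0.000736). Cyc1, the cytochrome c1 of complex III that the name rule leaves out, differed by -0.32 (limma adjusted p 8.27e-05) and Etfb, of the electron transfer flavoprotein, by -0.24. Coq8b and Coq9, of ubiquinone synthesis, rose by 0.43 and 0.18. Of 32 further assembly factors 9 fell (28.1%) and 2 rose (6.25%) under vehicle. Under OCA 7 fell (21.9%) and 5 rose (15.6%), beside the same 13.3% and 17.4% of all genes. The lowest under vehicle were Cox20 at -0.54, Cox11 at -0.49 and Ecsit at -0.43, which serve complexes IV, IV and I. The higher ones under vehicle were Cox19 at 0.62 and Bcs1l at 0.18.

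Other parts of the mitochondrion did not share one direction. In the citric acid cycle 3 of 13 genes rose (23.1%) and 2 fell (15.4%), beside 15.4% and 12.1% of all genes. Under OCA 4 rose (30.8%) and 2 fell (15.4%), beside 17.4% and 13.3% of all genes. Citrate synthase, Cs, rose by 0.69 (9.72, 9.76 and 10.01 in wild-type, 10.38, 10.50 and 10.68 in FXR-/- vehicle livers, limma adjusted p 2.43e-07), Idh2 by 0.57 and Mdh2 by 0.24, while Fh1 differed by -0.43 and Sucla2 by -0.35. Of 74 genes of the mitochondrial ribosome 8 rose (10.8%), with Mrpl54 at 0.51, Mrpl23 at 0.35 and Mrps36 at 0.31 the highest. In the same list 9 fell (12.2%), with Mrpl47 at -0.62, Mrps35 at -0.43 and Mrps31 at -0.43 the lowest. Both shares are close to or below those of all genes. Under OCA 10 rose (13.5%) and 8 fell (10.8%), beside 17.4% and 13.3% of all genes. Of 19 genes of mitochondrial membranes and chaperones 3 rose (15.8%) and 2 fell (10.5%), near the shares of all genes. Under OCA 6 rose (31.6%) and none fell. Slc25a4, the heart and muscle form of the ADP/ATP carrier that hands ADP to complex V, had 6.25, 6.36 and 7.15 in wild-type and 8.91, 9.03 and 9.10 in FXR-/- vehicle livers. It rose 5.76-fold (2.53, SE 0.12, limma adjusted p 1.72e-14) and, under OCA, 6.48-fold. Ucp3 rose by 0.73 and Immt, which shapes the cristae, by 0.43, while Tomm40 and Slc25a3 fell by 0.24 and 0.12. With arrays centred on their medians over all genes the ribosomal list turned to 1 higher and 43 lower, and the citric acid cycle to 2 higher and 7 lower. Of the 172 genes in these 6 lists limma called 0 for OCA in wild-type liver, with 18 at an unadjusted p under 0.05, and 0 in FXR-/- liver, with 4.

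**Figure D5:**
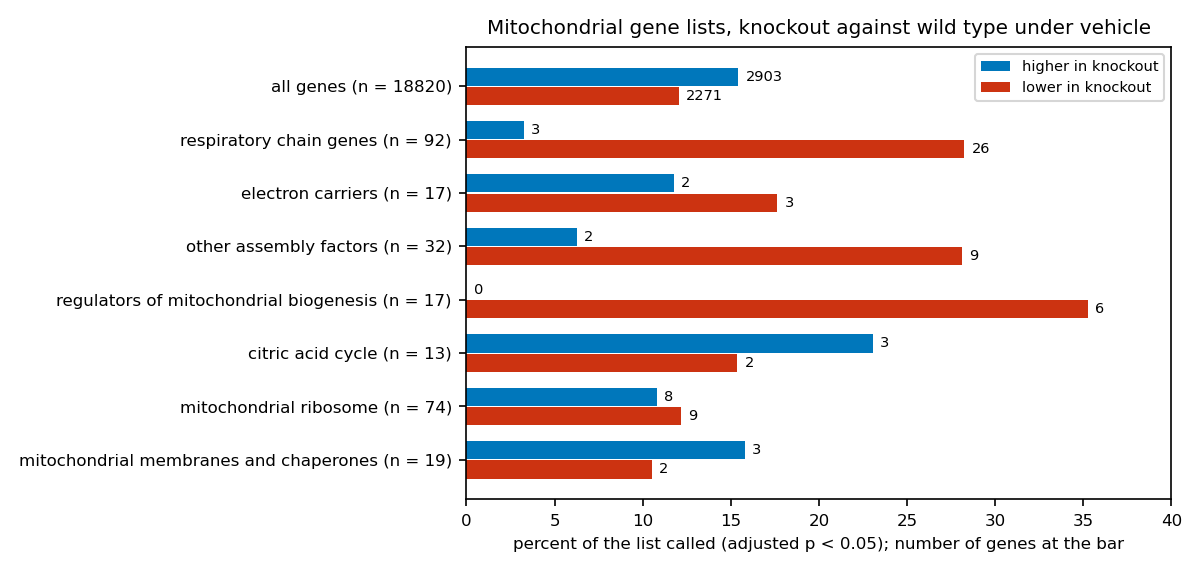
Percent of each gene list called higher (blue) or lower (red) in FXR-/- against wild-type vehicle liver at an adjusted p under 0.05, with the number of genes at each bar (6 against 6 mice). The respiratory chain genes have 26 lower and 3 higher, the regulators 6 lower and none higher, and the mitochondrial ribosome 9 lower and 8 higher.

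Some cell type markers differed with genotype too. Over all genes 12.1% were called lower and 15.4% higher under vehicle, and 13.3% and 17.4% under OCA. Of 5 hepatocyte markers 1 fell under vehicle (Cps1 at -0.30) and none rose, and the log2 of their summed signal ran from 15.34 to 15.46 in wild-type and from 15.22 to 15.32 in FXR-/- vehicle livers. Stellate cell markers rose in 4 of 5 cases, with sums of 11.00 to 11.45 and 11.77 to 12.02, and Kupffer cell markers in 3 of 6, with sums of 10.44 to 11.33 and 11.25 to 11.55. Cholangiocyte markers rose in 2 of 4 cases, and of 5 endothelial markers 1 fell. Under OCA 4 of 5 hepatocyte markers fell, and 5 of 5 stellate and 4 of 6 Kupffer cell markers rose. Of 5 adipocyte markers Cidec, a lipid droplet gene that fatty hepatocytes also express, rose by 2.33. The only red cell marker measured, Alas2, differed by -1.15, and none of 3 neutrophil or 3 lymphocyte markers was called. The part of cell composition in the genotype differences of the respiratory chain was not tested.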

How the data were processed

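The data are the deposited log2 expression values of 24 arrays, 1 per mouse. Per the submitters' processing notes the authors used RMA, with no version given in the sources used here; the log2 scale was taken from the range of 0.87 to 13.6. Per the labels' protocols, snap-frozen liver gave the RNA and biotin-labelled whole-transcript cDNA was hybridised.

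Of 35556 probe sets, 21218 had 1 gene symbol in the platform annotation, 1881 had several and 12457 were not listed; 21185 symbols were looked up by gene number in RefSeq. The probe set of highest mean stood for each of 18820 genes. Cox7c, Ndufa13 and Uqcrc2, on probe sets with several symbols, were not used, and Ndufb1, Ndufb4b, Ndufb4c and Ndufaf8 were not analysed here. No filter was applied.

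One limma 3.58.1 model (R 4.3.3) with 4 group means gave all comparisons (20 residual and 4.465 prior degrees of freedom), with Benjamini-Hochberg adjustment over all genes, and was tested on simulated data. Members and lists were chosen with earlier results of these data known. Named genes are, for each comparison and complex, up to 4 called each way with the largest change, otherwise the smallest p; the tissue-restricted forms, their partners and Sdha to Sdhd always; up to 3 called each way from each other list; Nr1h4 and Nr0b2. Ndufb3, Ndufa1, Ndufa9, Ndufb5, Ndufv3, Ndufv1, Ndufs1, Atp5a1, Atp5o, Ndufa11, Ndufb8, Gabpb1, Yy1, Polrmt and the markers named were added after their values were seen, to account for every call. The motifs were chosen with the results known. The number of arrays limits the precision. Replicate numbers do not pair the mice. Alternatives tried were another normalization and centring, filters, weights, blocks, subsets of arrays and other probe sets.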

Additional observations from a re-analysis of the deposited data

Results flagged for a closer look

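In 13 of 208 groups of 6 arrays tested (6.25%) the highest or lowest array lay far from the others; chance gives about 1 in 20. In replicate 1 of the FXR-/- vehicle group the mean of the complex II assembly factors was low at 6.07 (nearest other array 6.25), Ndufaf6 was low at 5.63 (5.90) and Sdhaf1 was high at 6.86 (6.74). In replicate 2 Ndufa4l2 was high at 5.47 (5.28), and in replicate 6 Atp5e was high at 8.06 (7.87) and Cox7a2 at 8.88 (8.71).

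In FXR-/- OCA livers replicate 2 held the lowest value of Cox7b2, 1.79 (2.17), of Ndufaf1, 6.95 (7.10), and of Sdhd, 9.93 (10.03). In wild-type OCA livers replicate 4 was high for Cox7b2 at 2.91 (2.31) and low for Sdhaf4 at 4.16 (4.83). In wild-type vehicle livers Ndufa1 was low in replicate 6 at 8.80 (8.90) and Ndufc1 in replicate 2 at 9.83 (9.95). Without replicate 6 of the wild-type vehicle group Ndufa1 kept its call.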

How the results depend on the processing

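Under vehicle the genotype comparison gave 29 called members. It gave 18 with the code number as a block, 16 within number 7 and 73 with arrays centred on their medians over all genes, and from 21 to 28 in the 12 fits that each left out 1 array. Under OCA it gave 25, and 1 with the code number as a block, 1 with that block and without wild-type vehicle replicate 6, 76 with that centring, 12 without the arrays whose names end in _2, and 21 to 28 in the fits without 1 array. Atp5mpl, Ndufa10 and Ndufc1 turned to -0.057, -0.027 and -0.054 under OCA with that centring, whose construction moves every gene by the same amount per array. The cause of the other changes was not tested. Counts under the remaining alternatives stayed within 1.5 times. Centring on the whole table's median or on the median difference of all genes, chosen after seeing the data, gave 33 and 26 calls under vehicle. OCA calls and the difference of OCA effects stayed at 0 under every alternative run.

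Under vehicle 20 of 29 calls, and under OCA 17 of 25, were kept in every fit without 1 array. Ndufa1, Ndufa12, Ndufb6, Ndufb11, Ndufaf1, Ndufaf4, Ndufs8, Ndufv1, Sdhb, Uqcrfs1, Cox7a1 and Atp5g1 kept their vehicle call in these and in all 15 other alternatives. The replicate numbers do not pair the mice: of 24 correlations between same-numbered arrays 2 were over 0.1 (-0.05 to 0.17). With the replicate block 22 members were called under vehicle, 22 under OCA and 0 for OCA in either genotype. Signal over background limits the low-valued tissue-restricted forms, and the scale of the arrays, with genotypes differing in median, limits every small difference.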
